A study of Mus musculus with 2 samples.

Results

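The genes for translation initiation and elongation factors were followed in single-cell RNA-seq of mouse embryonic stem (ES) cells. They were all annotated genes whose symbol begins with Eif1 to Eif6 or with Eef, with pseudogenes and the sex-linked pair *Eif2s3x* and *Eif2s3y* left out. This gave 68 of the 54146 gene rows, of which 54 are Eif and 14 are Eef genes. Of these, 61 had at least 200 UMIs over both libraries and entered the comparison between libraries. The members under this minimum were *Eef1a2*, *Eef1akmt2*, *Eef1akmt3*, *Eif2c5*, *Eif4e1b*, *Eif4e3* and *Eif5a2*. *Eif2c5*, a long noncoding RNA in the annotation, shares the name only and had 3 and 5 UMIs, and none of the 7 had more than 114 UMIs in the wild-type library.

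The study made 1 inDrop library of wild-type E14 ES cells and 1 of *Lin28a* knockout E14 ES cells, in which CRISPR/Cas9 had targeted the second exon of the gene. Each library was made from 1 clonal line, and both lines were kept in N2B27 medium with LIF and 2i inhibitors on gelatin with mouse embryonic fibroblast feeders. In inDrop, single cells are lysed inside droplets, and a random tag (unique molecular identifier, UMI) on the primer lets each captured transcript be counted once. With 1 library per genotype, no test was possible, and the knockout cannot be told apart from any other difference between the clones or cultures.

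Initiation factors bring the initiator tRNA and the small ribosomal subunit to the capped end of an mRNA, scan to the start codon and join the large subunit. Elongation factors then deliver each aminoacyl-tRNA and move the ribosome along the message. Many mRNAs of elongation factors and of a few initiation factors begin, like those of ribosomal proteins (RP), with a terminal oligopyrimidine (TOP) tract, through which mTORC1 and LARP1 set how well they are translated. LIN28A is an RNA-binding protein of pluripotent cells that blocks let-7 maturation and binds many mRNAs.

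Cells with at least 500 UMIs and at most 20% mitochondrial UMIs were kept. They were 1856 wild-type cells with 11639256 UMIs (median 6140 per cell) and 1622 knockout cells with 9340855 UMIs (median 5063.5). *Lin28a* stood at 107 CPM (UMIs of a gene relative to all UMIs of the library) in the wild-type library (95% interval 100.9 to 113) and at 36.6 CPM in the knockout library (32.8 to 40.7). All 9 ES cell markers examined were detected, at 4448 and 4629 CPM in sum. By the rule for calls given below, 2 of them were lower in the knockout library, *Sox2* (ratio 0.581) and *Zfp42* (0.787), and 7 lay between. The 8 feeder fibroblast markers summed to 1287 CPM in wild-type and 615 CPM in knockout cells, none of them at 0, and the most abundant, *Sparc* and *Col1a1*, stood at 554 and 480 CPM against 359 and 180 CPM. The median RP share of a cell, the percentage of its UMIs on 87 ribosomal protein genes, was 9.72% in wild-type and 10.8% in knockout cells. Intervals are exact 95% intervals for counts and cover counting error only. Values are UMIs relative to the total and are not divided by transcript length, because each UMI marks 1 captured transcript end.

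TOP mRNAs are defined by the first bases of the transcript, so the starts of the TOP genes among the factors were examined. Of a list of 9 factor genes known as TOP genes, *Eef1a1*, *Eef1b2*, *Eef2*, *Eif3f* and *Eif4b* had an entry in the RefSeq promoter table of GRCm38.p6, as did 52 of the 68 genes in all. The windows below run from 10 bases before the annotated start to the 15th base from it, 5′ to 3′, and are shown because the list holds the most abundant factor and the factor with the lowest ratio in cells under 10% RP share below. Capitals mark the longest run of at least 5 C or T on the sense strand that overlaps the last 5 bases before or the first 10 bases from the start.
*Eef1a1* (chr9:78481710-78481734, minus strand): ctccgCCCTCTTCCCgagggtgggg
*Eif3f* (chr7:108934405-108934429, plus strand): tctaggCTCTCTCTCTTTCTCggca
*Eef1b2* (chr1:63176821-63176845, plus strand): ctgcagttccgccggaagtagccga
*Eef2* (chr10:81176621-81176645, plus strand): aaggccgggcgttgacgtcagcggt
*Eif4b* (chr15:102073763-102073787, plus strand): tcccgtcggacgccgcgccaccccc
Such a run was present in 2 of these 5 genes, in 22 of the 52 genes with an entry (42.3%) and in 38.0% of all 32851 promoters of the table. A factor gene was counted if any of its entries had a run, whereas the last share counts single promoters, so the shares differ in unit. The run of *Eif3f* is 15 bases long and that of *Eef1a1* 10 bases. The windows of *Eef1b2*, *Eef2* and *Eif4b* hold no such run at the annotated position, which says nothing about the start sites used in these cells.

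The 68 genes took 26869.5 CPM in the wild-type library (26775 to 26964) and 27072 CPM in the knockout library (26967 to 27178). The ratio of knockout over wild-type was 1.008 (1.002 to 1.013), and 0.973 with median of ratios scaling, so the sum had no firm direction. *Eef1a1*, which delivers aminoacyl-tRNA to the ribosome and lies on chromosome 9 from 78478449 to 78489151 (GRCm38, minus strand), had 9799 CPM in wild-type and 10139 CPM in knockout cells. It was the most abundant factor by a wide margin. *Eif5a*, the hypusinated factor that helps ribosomes through difficult peptide bonds, followed at 1989 and 2189 CPM. *Eef1b2* and *Eef1g*, subunits of the complex that recharges eEF1A with GTP, had 1390 and 1147 CPM in wild-type and 1442 and 1373 CPM in knockout cells. The RNA helicase gene *Eif4a1* had 1269 and 1443 CPM, and *Eif2s2*, the beta subunit of eIF2, had 1282 and 935 CPM. Few UMIs fell on *Eif4e1b* and *Eif4e3*, relatives of eIF4E with 10 and 18 UMIs in the wild-type library, and fewer still on *Eif2c5* and *Eef1a2*.

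The summed share varied between cells more than counting explains. Among cells with at least 2000 UMIs its median was 2.70% of UMIs in 1642 wild-type cells and 2.74% in 1110 knockout cells. The SD was 0.339 percentage points in the wild-type library, against 0.210 from counting alone, and 0.469 against 0.212 in the knockout library. For *Eef1a1* alone the SD was 0.263 against 0.128 in wild-type and 0.383 against 0.131 in knockout cells. The SD was above the counting SD in both libraries and larger among knockout cells.

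Between libraries the factors split by gene and not by the sum. A gene was called where its ratio was past 0.32 on the log2 scale, that is at least 25% higher or 20% lower, with an interval off 1. By this rule 7 of the 61 genes were higher in the knockout library, where 19.1% of all 9835 genes were. Lower by the same rule were 13 of 61, or 21.3%, where 20.5% of all genes were. The median ratio was 1.0 for the factors and 1.01 for all genes. The share lower was thus close to that of all genes, and the share higher (11.5%) was below it. All 13 lower genes were Eif genes, as were 50 of the 61 genes measured, and one of them, *Eif4ebp2*, encodes an inhibitor of eIF4E. Of the 7 higher genes 3 were Eef genes, *Eefsec*, *Eef2* and *Eef1akmt4*. The Eef genes without *Eef1a1* summed to 3524 CPM in wild-type and 4052 CPM in knockout cells, a ratio of 1.15 (1.13 to 1.17). The Eif genes summed to 13546 and 12881 CPM, a ratio of 0.951 (0.944 to 0.958).

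**Figure D1:**
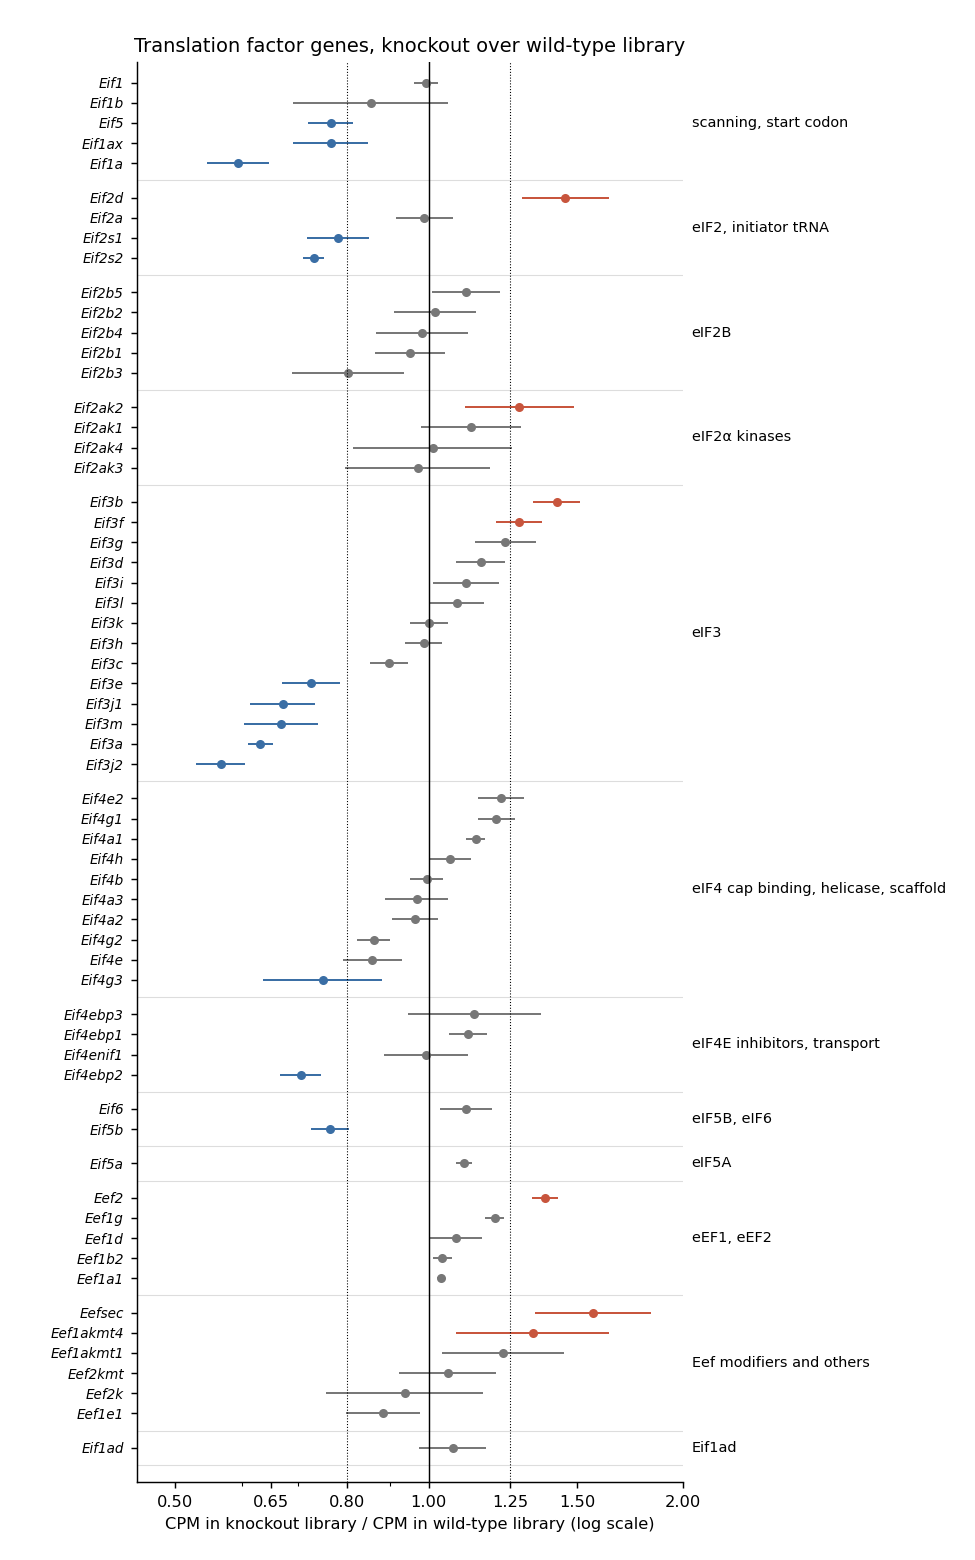
Ratio of CPM in the knockout over the wild-type library (log scale) for the 61 factor genes with at least 200 UMIs, grouped by role, with exact 95% counting intervals as bars; red genes were called higher, blue genes lower, and dotted lines mark the limits of the rule. The subunits of eIF3 span the range from *Eif3j2* at 0.566 to *Eif3b* at 1.42, and all 5 genes of eEF1 and eEF2 lie above 1.

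Among the factors that scan for and select the start codon, 3 of 5 were lower in the knockout library and none was higher, beside 20.5% and 19.1% of all genes. *Eif1a*, which with eIF1 opens the small subunit for scanning, had 154 CPM in wild-type and 91.6 CPM in knockout cells, a ratio of 0.594 (0.547 to 0.645). Its X-linked relative *Eif1ax* had 91.2 and 69.8 CPM, a ratio of 0.765. *Eif5*, which prompts eIF2 to hydrolyse GTP at the start codon, had 252 and 192 CPM, also a ratio of 0.765 (0.721 to 0.812). In cells of 5 to 10% and 10 to 15% RP share only *Eif1a* of these 3 was still called, as *Eif1ax* stood at 0.861 and 0.948 and *Eif5* at 0.834 and 0.872, and the same 2 calls were lost without cells under 0.5% mitochondrial share (0.818 and 0.809). *Eif1* itself had 882 and 875 CPM, a ratio of 0.992 (0.963 to 1.02). Its value is uncertain where counting splits reads with its copies, of which *Eif1-ps1* had 361 and 424 UMIs.

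The eIF2 complex, which carries the initiator tRNA, was lower in both subunits examined. *Eif2s2* (chromosome 2, 154871410 to 154892935, minus strand) gave a ratio of 0.730 (0.711 to 0.750), and *Eif2s1*, the alpha subunit that stress kinases phosphorylate, had 129 and 101 CPM, a ratio of 0.781 (0.719 to 0.848). The call of *Eif2s1* was lost in cells of 5 to 10% and 10 to 15% RP share (1.001 and 0.805) and without cells under 0.5% mitochondrial share (0.846). *Eif2d*, which delivers tRNA independently of GTP, went the other way with 46.8 and 68.0 CPM, a ratio of 1.45 (1.29 to 1.63). Its call was lost in cells of 5 to 10% RP share (1.192, 0.955 to 1.48). None of the 5 genes of eIF2B, the exchange factor for eIF2, passed the rule, with *Eif2b3* lowest at 0.802 and *Eif2b5* highest at 1.11. Beside the counts for eIF2, eIF2B and the kinases, 20.5% of all genes were lower and 19.1% higher. Of the 4 kinases of eIF2 alpha, *Eif2ak2* (PKR) was higher, at 31.6 and 40.5 CPM and a ratio of 1.28 (1.11 to 1.48), and the other 3 lay between 0.970 and 1.12. The call of *Eif2ak2* was lost in cells of 5 to 10% (1.154, 0.927 to 1.43) and 10 to 15% RP share (1.257, 0.955 to 1.66).

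The 14 genes of eIF3, the scaffold that joins the small subunit to the mRNA, summed to 3442 CPM in wild-type and 3015 CPM in knockout cells, a ratio of 0.876 (0.863 to 0.889). The median ratio of these genes was 0.993, so the sum does not stand for the single subunits. *Eif3a* (chromosome 19, 60761117 to 60790658, minus strand), the largest subunit, had 958 CPM in wild-type and 605 CPM in knockout cells, a ratio of 0.631 (0.611 to 0.652). The large subunits *Eif3b* and *Eif3c* were not called lower. *Eif3b* (chromosome 5, 140419328 to 140443360, plus strand), on which the peripheral subunits assemble, had 172 and 244 CPM, a ratio of 1.42 (1.34 to 1.51), and *Eif3c*, a neighbour of *Eif3a* in the core, had 341 and 305 CPM, a ratio of 0.897. Also in the core, *Eif3e* and *Eif3m* were lower, at 0.725 and 0.668, calls that held in 1 of 3 groups of like RP share each, while *Eif3f* was higher, at 184 and 235 CPM and a ratio of 1.28 (1.20 to 1.36), a call that was lost in each group of like RP share (1.107, 1.099 and 1.108). The values of *Eif3e*, on 1776 and 1033 UMIs, are uncertain where counting splits reads with its pseudogene copies. Of these *Eif3s6-ps1* had 165 and 129 UMIs and *Eif3s6-ps3* had 164 and 143. *Eif3j1* and *Eif3j2*, close copies of the loosely attached j subunit, had ratios of 0.671 and 0.566. Counting may share reads between these copies, although the files mark 0 and at most 1 of their UMIs as ambiguous. Subunits of 1 complex thus lay on both sides, with 5 lower, 2 higher and 7 between, beside 20.5% lower and 19.1% higher among all genes.

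Of the cap-binding, helicase and scaffold factors of eIF4, 1 of 10 was lower and none higher, beside 20.5% and 19.1% of all genes. *Eif4g3* was the lower gene, at 35.9 and 26.9 CPM and a ratio of 0.748 (0.637 to 0.877), which was no longer called in cells of 5000 to 10000 UMIs (0.929, 0.736 to 1.17) or of 15% and over RP share (0.860). The other scaffolds lay on either side of 1 within the rule, *Eif4g1* at 1.20 and *Eif4g2*, which lacks the site for eIF4E, at 0.860. The cap-binding gene *Eif4e* had a ratio of 0.857 (0.793 to 0.926) and its relative *Eif4e2* one of 1.22 (1.15 to 1.29). The values under 1 of *Eif4g2* and *Eif4e* did not hold in cells of 5 to 10% RP share, where they were 1.069 (1.013 to 1.13) and 1.033 (0.934 to 1.14), and came to 0.551 and 0.697 at 15% and over. Of the proteins that hold eIF4E away from eIF4G, *Eif4ebp2* was lower with 320 and 225 CPM, a ratio of 0.704 (0.667 to 0.743), and *Eif4ebp1* had a ratio of 1.11 (1.06 to 1.17). For *Eif4ebp3* no value is firm, as 150 of its 276 wild-type and 149 of its 267 knockout UMIs are marked ambiguous with a neighbouring gene. *Eif5b*, which joins the large subunit, was lower at 0.764 (0.728 to 0.801), and *Eif6*, which keeps the subunits apart, had a ratio of 1.11.

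Among the elongation factors, *Eef2*, the translocase (chromosome 10, 81176631 to 81182498, plus strand), had 597 CPM in wild-type and 820.5 CPM in knockout cells, a ratio of 1.38 (1.33 to 1.42). *Eef1g* reached 1.20, *Eef1d* 1.08, *Eef1b2* 1.04 and *Eef1a1* 1.03 (1.03 to 1.04), all above 1 and below the limit of the rule. Except for *Eef1g*, these small differences did not hold in each group of like RP share, as *Eef1a1* was at 0.962 (0.940 to 0.985) and *Eef1b2* at 0.976 at 15% and over, and *Eef1d* at 0.956 and 0.959 at 5 to 10% and 10 to 15%. *Eefsec*, the factor for selenocysteine, had the highest ratio of all 61 genes, 1.57 (1.34 to 1.83), on 293 and 368 UMIs. *Eef1akmt4*, a lysine methyltransferase of eEF1A, followed the same direction at 1.33 (1.08 to 1.63) on fewer UMIs, a call that held only in cells of 15% and over RP share and those of 5000 to 10000 UMIs. *Eef1e1*, a scaffold of the tRNA synthetase complex, had 85.6 and 75.5 CPM, a ratio of 0.882. *Eef1a2*, the muscle and neuron form of eEF1A, had 0 UMIs in the wild-type library, which allows up to 0.258 CPM, and 4 UMIs in the knockout library.

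The differences between the libraries were looked at again among cells of like RP share. Of the 13 lower genes, 12 had a ratio under 1 in cells of 5 to 10% RP share, 13 in cells of 10 to 15% and 13 in cells of 15% and over. All 7 higher genes had a ratio over 1 in each of these groups. These groups, and the cells of 5000 to 10000 UMIs below, are parts of the cells in which the genes were called. Keeping the same side of 1 is thus partly built in. *Eif3a* gave 0.671, 0.648 and 0.606, and *Eef2* gave 1.21 to 1.26, so both stayed on their side at each RP share. Of the 13 lower genes 7 were called lower in all 3 groups, *Eif1a*, *Eif2s2*, *Eif3a*, *Eif3j1*, *Eif3j2*, *Eif4ebp2* and *Eif5b*, and of the 7 higher genes 2 were called higher in all 3, *Eif3b* and *Eefsec*. *Eif2s1* gave 0.472 at 15% and over, furthest from 1 in the cells rich in RP transcripts. Of the 20 calls, 10 held in cells of 5 to 10%, 13 in cells of 10 to 15%, 17 in cells of 15% and over and 15 without cells under 0.5% mitochondrial share. The calls themselves depended on the group. At 5 to 10% RP share 8 of 61 factors were lower and 2 higher, where 13.6% and 15.5% of all genes were. At 10 to 15% 10 were lower and 5 higher, where 14.0% and 13.5% of all genes were, and at 15% and over 16 were lower and 7 higher, where 13.5% and 9.45% were. The share of factors lower was thus near that of all genes in the first group (13.1%) and above it in the last (26.2%). In cells of 5000 to 10000 UMIs, where depth is alike, 14 were lower and 12 higher (23.0% and 19.7%), near the 25.3% and 20.1% of all genes, and all 20 genes kept their side of 1.

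Related genes were set against each other within a library, which does not depend on the scaling. *Eif4ebp1* made up 48.4% of its UMIs with *Eif4ebp2* in the wild-type (47.2 to 49.5) and 59.7% in the knockout library (58.3 to 61.0). *Eif4e* made up 42.5% with *Eif4e2* in the wild-type (40.9 to 44.1) and 34.2% in the knockout library (32.6 to 35.9). The share of *Eif4ebp1* was thus larger and that of *Eif4e* smaller in the knockout library, with intervals that do not overlap. In cells of 5 to 10% RP share the first difference held, at 40.7% (39.0 to 42.4) and 47.8% (45.3 to 50.4), and the second was within the intervals, at 54.6% (52.4 to 56.7) and 52.9% (50.01 to 55.8). *Eif4g1* made up 39.9% with *Eif4g2* in wild-type and 48.2% in knockout cells, and *Eif1a* made up 62.8% with *Eif1ax* against 56.8%. In cells of 5 to 10% the shares of *Eif4g1* were 32.0% and 33.7% and those of *Eif1a* 64.1% and 58.97%, with intervals that overlap for both pairs. In richer cells the overlap depended on the group. *Eif4g1* stood apart at 15% and over, at 76.0% (72.8 to 79.0) and 87.4% (85.2 to 89.4). At 10 to 15% its intervals overlapped, at 46.2% (44.1 to 48.2) and 49.5% (47.6 to 51.5). *Eif1a* stood apart at 10 to 15%, at 60.7% (57.2 to 64.2) and 52.8% (48.8 to 56.9). At 15% and over its intervals overlapped, at 57.3% (49.0 to 65.4) and 56.0% (45.7 to 65.9). *Eif4a1* made up 86.1% with *Eif4a2* against 87.9%, and 81.1% against 80.7% in cells of 5 to 10%, within the intervals. For *Eif4a1* the copies matter, as the pseudogene *Eif4a-ps4* had 401 and 548 UMIs. Some relatives had few UMIs: *Eif5a2* made up 0.379% with *Eif5a* in wild-type and 0.317% in knockout cells, and *Eif1b* made up 2.18% with *Eif1* against 1.88%.

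**Figure D2:**
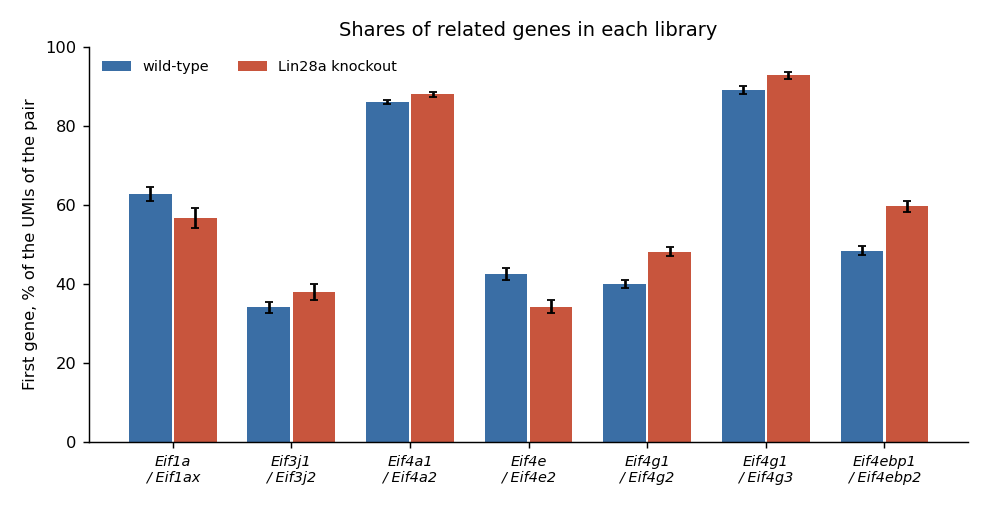
Percentage of the UMIs of a gene pair that fell on the first gene, in the wild-type (blue) and *Lin28a* knockout (red) library, with exact binomial 95% intervals for counting error. Among the 7 pairs drawn, the 2 bars differ most for *Eif4ebp1* with *Eif4ebp2*, at 48.4% and 59.7%, and least for *Eif4a1* with *Eif4a2*, at 86.1% and 87.9%.

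A property the choice of genes did not use moved with the library ratio. The 13 lower genes had a median GC content of 42.1% over the transcript and the 7 higher genes one of 53.8%, with 51.2% for the 41 between. Spearman's rho of GC content with the ratio was 0.596 across the 61 factors and 0.543 across 8152 of the 9835 genes (82.9%) with a transcript sequence. These are descriptions across genes that share the same 2 libraries. In transcripts under 42% GC the median ratio was 0.765 for 7 factors and 0.772 for all genes, and at 54% and over it was 1.09 for 16 factors and 1.17 for all genes. The medians of the factors rose with GC content as those of all genes did. *Eif4ebp2* (52.4% GC, ratio 0.704), *Eif4g3* (54.5%, 0.748, but 0.929 in cells of 5000 to 10000 UMIs) and *Eif2ak2* (43.9%, 1.28) stood away from it. The transcript used for *Eif4g3* held almost only coding sequence (5286 of 5289 bases), so its GC content leaves out untranslated regions. *Eif2ak2* was not called in cells of 5 to 10% (1.154) and 10 to 15% RP share (1.257). The lower genes also had longer 3′ untranslated regions, with a median of 1540 bases against 503 bases for the higher genes, but rho with this length was only -0.233. Among all genes the medians were 1334 and 726 bases, with rho -0.165.

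**Figure D3:**
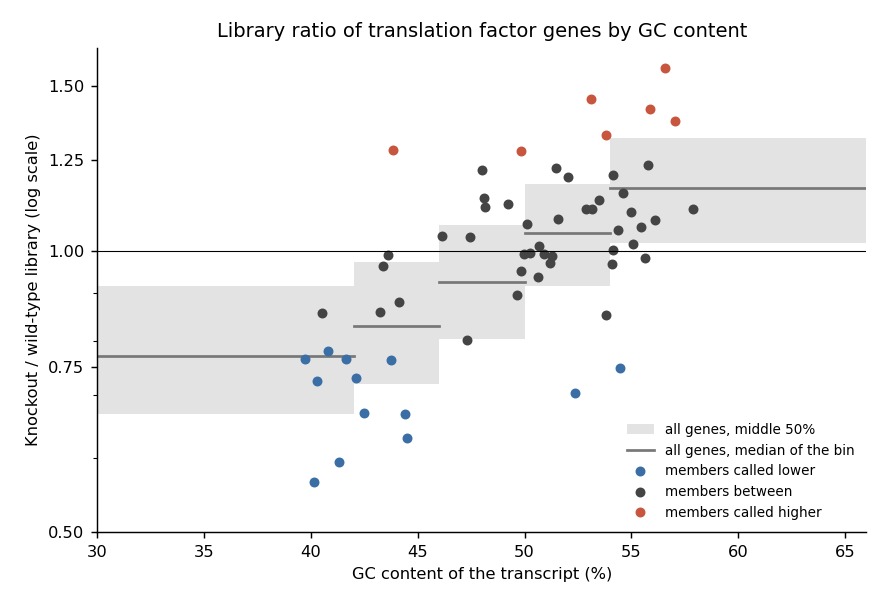
Ratio of knockout over wild-type library (log scale) against the GC content of the transcript for the 61 factor genes, with the median (grey line) and middle 50% (grey field) of all genes in 5 bins of GC content. The factors rise from a median of 0.765 under 42% GC to 1.09 at 54% and over, beside 0.772 and 1.17 for all genes.

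The cells were next grouped by RP share. Under 5% there were 91 wild-type and 233 knockout cells, from 5 to 10% 932 and 439, from 10 to 15% 607 and 595, and at 15% and over 226 and 355. As RP UMIs define the groups, the factors were counted as non-RP CPM, that is CPM of the UMIs outside RP genes. In the wild-type library the 68 genes stood at 12252 non-RP CPM under 5% (11560 to 12975), at 29203 from 5 to 10%, at 31680 from 10 to 15% and at 31551 at 15% and over (31261 to 31843). In the knockout library the same groups gave 13323 (12924 to 13730), 30285, 32735 and 30852 (30595 to 31112). The level was thus lowest by far under 5%, and above 5% the sum changed little.

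The sum hides 3 courses. *Eef1a1* stood at 3102 non-RP CPM under 5%, 11162 at 5 to 10%, 11843 at 10 to 15% and 8928 at 15% and over in wild-type cells, and at 2307, 12477, 13119 and 8589 in knockout cells. It was thus lower again in the cells richest in RP transcripts. The sum of the other 8 TOP genes was higher in each group than in the one before, from 1362 and 4219 to 5274 and 7055 in wild-type and from 1775 and 4551 to 5728 and 7596 in knockout cells. Its members did not all follow it, since *Eef1b2* went from 1784 at 10 to 15% to 1661 at 15% and over in wild-type and from 1861 to 1622 in knockout cells, and *Eif3e* (217 at 5 to 10% and 42.4 at 15% and over in wild-type) and *Eif4b* (510 and 329) ran the other way. The 59 genes outside the TOP list changed least above 5%, from 13822 to 15567 in wild-type and from 13257 to 14668 in knockout cells.

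**Figure D4:**
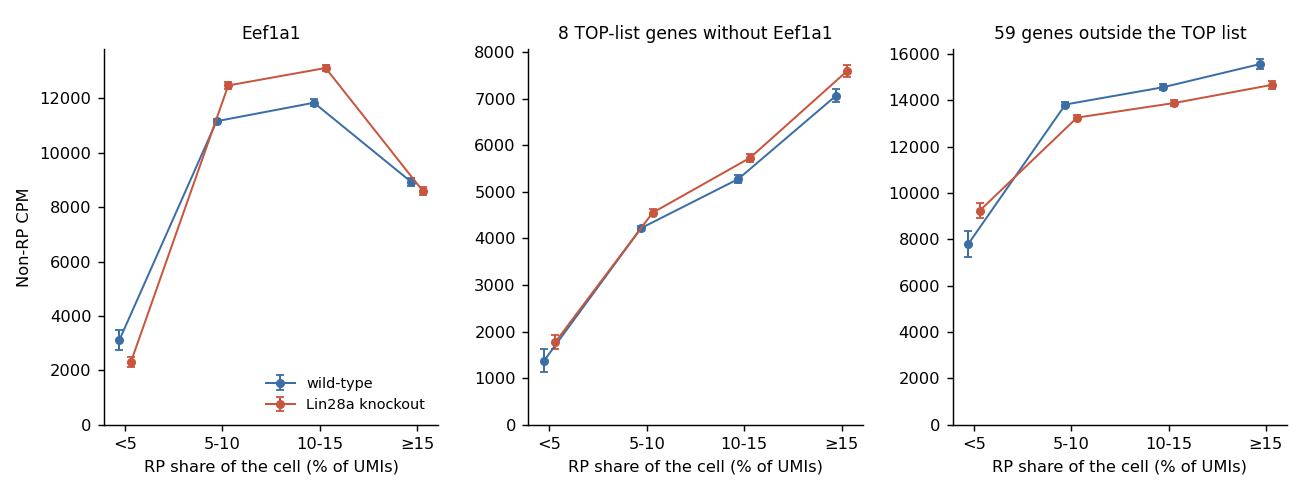
Non-RP CPM in cells of rising RP share for *Eef1a1* (left), for the other 8 TOP genes (middle) and for the 59 genes outside the TOP list (right), in the wild-type (blue) and knockout (red) library, with exact Poisson 95% intervals. *Eef1a1* is highest at 10 to 15% and lower at 15% and over, where the sum of the other TOP genes, which not all of them follow, reaches 7055 and 7596.

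Cells at 15% and over were low in mitochondrial transcripts, with a median share of 0.180% in wild-type and 0.266% in knockout cells against 1.69% and 2.50% at 5 to 10%. Their part in the results was not tested, and values without cells under 0.5% mitochondrial share are given with the counts below.

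Cells under 10% RP share were set against the other cells of the same library, 1023 against 833 in wild-type and 672 against 950 in knockout cells. In sum the factors were slightly lower in the low-RP cells, with a ratio of 0.914 (0.908 to 0.921) in wild-type and 0.895 (0.888 to 0.903) in knockout cells. Of 59 factors with at least 200 wild-type UMIs, 14 were higher by the same rule and 27 lower, where 36.6% of all genes were higher and 29.9% lower. Of 56 factors in the knockout library, 15 were higher and 28 lower, where 38.7% of all genes were higher and 32.9% lower. The factors thus held more lower genes than the background, 45.8% and 50%, and fewer higher ones. Their median ratio was 0.816 and 0.797, beside 1.06 and 1.04 for all genes. Among the 56 factors measured in both libraries, 13 were higher in both, 26 lower in both and 0 in opposite directions. Of the 6473 genes measured in both, 31.5% were higher in both, 28.4% lower in both and 3 genes opposite.

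**Figure D5:**
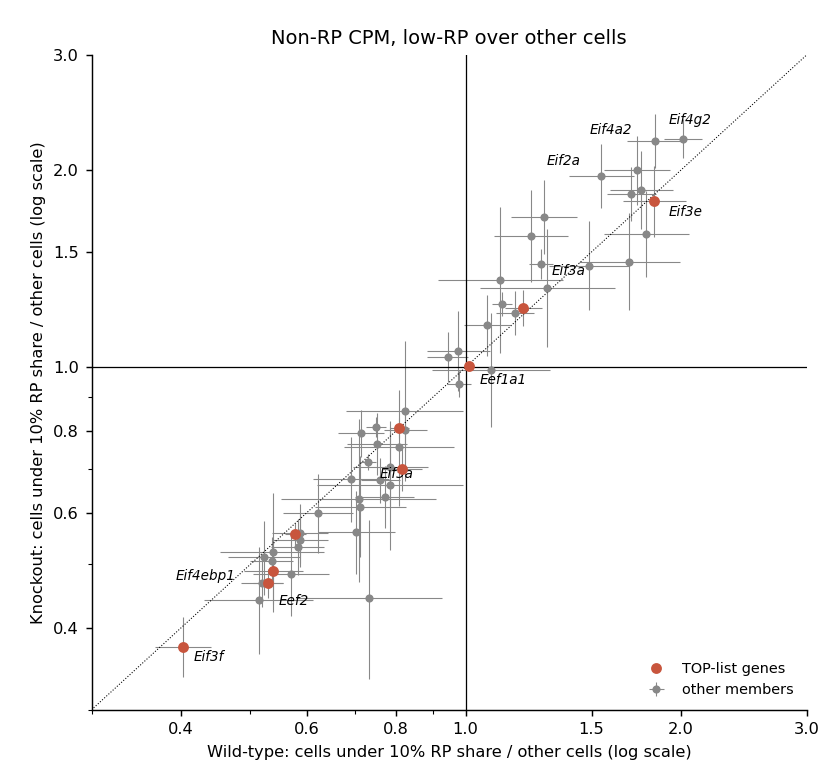
Non-RP CPM in cells under 10% RP share over the other cells, in the wild-type library (horizontal, log scale) and the knockout library (vertical, log scale), for 56 factor genes with exact 95% counting intervals; TOP genes are red. The genes follow the diagonal from *Eif3f* at 0.403 and 0.374 to *Eif4g2* at 2.01 and 2.23, with *Eef1a1* at 1.01 in both.

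The 14 genes higher in low-RP wild-type cells held 3 of 5 scanning factors and 3 of 10 genes of the cap-binding, helicase and scaffold group. They also held 2 of 4 genes of eIF2 and initiator tRNA delivery (*Eif2a* and *Eif2s1*), 2 of 3 eIF2 alpha kinases and 2 of 14 eIF3 genes. Beside these counts, 36.6% of all genes were higher. *Eif4g2* (chromosome 7, 111067750 to 111083030, minus strand) stood at 638, 399.5 and 127 non-RP CPM in wild-type cells of 5 to 10%, 10 to 15% and 15% and over, and at 684, 407 and 70.2 in knockout cells. Its ratio of low-RP over other cells was 2.01 (1.89 to 2.14) and 2.23 (2.09 to 2.39), the highest of the factors in both libraries. The helicase gene *Eif4a2* (chromosome 16, 23107444 to 23114136, plus strand) behaved alike, at 291, 207 and 47.4 in wild-type and 353, 219 and 29.2 in knockout cells. Its ratio was 1.84 (1.68 to 2.01) and 2.21 (2.02 to 2.43), whereas the closely related *Eif4a1* had 0.748 and 0.809. *Eif4e* had 1.73 and 2.00 while *Eif4e2* had 0.582 and 0.532, so the members of each of these pairs lay on opposite sides of 1. *Eif1a* (1.76 and 1.86), *Eif5* (1.70 and 1.84), *Eif2a* (1.55 and 1.96) and *Eif2s1* (1.29 and 1.69) were also higher, although the wild-type calls of *Eif2a* and *Eif2s1* were lost without cells under 0.5% mitochondrial share (1.24 and 1.06).

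The genes lower in low-RP cells included genes of eIF3, eIF2B and the elongation complexes. *Eif3f* (chromosome 7, 108934417 to 108942951, plus strand) had the lowest ratio, 0.403 (0.368 to 0.441) in wild-type and 0.374 (0.337 to 0.415) in knockout cells, and rose from 126 at 5 to 10% to 504 at 15% and over in the wild-type library. Of the 14 eIF3 genes, 8 were lower and 2 higher in wild-type and 9 lower and 3 higher in knockout cells, beside 29.9% lower and 36.6% higher among all genes in the first and 32.9% and 38.7% in the second. Without cells under 0.5% mitochondrial share 6 and 9 of them were lower, and 1 and 2 higher. Of all genes 19.7% were then lower and 24.2% higher in wild-type, and 26.1% and 29.7% in knockout cells. *Eif3e*, another core subunit and also a TOP gene, was among the higher ones, at 1.84 (1.66 to 2.04) and 1.79 (1.58 to 2.03). Of the 5 eIF2B genes, 4 were lower in each library, the exception being *Eif2b3* at 0.821 and 0.858, and 3 and 4 without cells under 0.5% mitochondrial share. *Eif4ebp1* was at 0.519 and 0.468, *Eif5a* at 0.731 and 0.717 (0.826 and 0.793 without these cells, with the wild-type call lost), and *Eef2* at 0.529 (0.504 to 0.555) and 0.468 (0.444 to 0.493).

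The TOP list did not act as 1 group. Of its 9 genes, 4 were lower and 1 higher in low-RP cells of the wild-type library, and 5 were lower and 1 higher in the knockout library, beside 29.9% and 36.6% of all genes in the first and 32.9% and 38.7% in the second. *Eef2*, *Eef1g* (0.578 and 0.556), *Eef1d* (0.539 and 0.488) and *Eif3f* were lower in both, *Eef1b2* stood at 0.808 and 0.807, and *Eef1a1* at 1.01 (0.997 to 1.02) and 1.01 (0.992 to 1.02), a value that turned under 1 without the cells under 0.5% mitochondrial share. *Eif4b*, an activator of the eIF4A helicase, lay above 1 at 1.20 and 1.23. Without the cells under 0.5% mitochondrial share *Eef1b2* was called lower in both libraries, at 0.790 and 0.755. *Eif4b* then stood at 1.09 and 1.01, and *Eif3e* was still called higher at 1.39 and 1.32. Across 1642 wild-type cells of at least 2000 UMIs, Spearman's rho of the share of non-RP UMIs with RP share was -0.0500 for *Eef1a1* and 0.539 for the factors without it, and across 1110 knockout cells it was -0.246 and 0.652. Over all kept cells the sign for *Eef1a1* turned, with rho 0.0653 in wild-type and 0.175 in knockout cells, so it had no firm direction across cells. These cells share a library and RP share is taken from the same UMIs, so the values are descriptive.

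The direction in low-RP cells also moved with GC content, with rho -0.687 in wild-type and -0.717 in knockout cells across the factors and -0.692 and -0.682 across all genes. Of the 13 factors lower in the knockout library, 11 had a ratio over 1 in low-RP wild-type cells and 13 in low-RP knockout cells. Of the 7 factors higher in the knockout library, 1 did so in each library, *Eif2ak2*. Of the 41 factors between, 12 had a ratio over 1 in low-RP wild-type cells and 10 in low-RP knockout cells. The same counts were not made over all genes, so they are not read as a trait of the factors. The knockout library held more cells at 15% and over, and the values within groups of like RP share stand above.

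Without the cells under 0.5% mitochondrial share fewer genes were called in low-RP cells, among the factors and among all genes. In the wild-type library 10 of 59 factors were then higher and 17 lower (28.8%), where 24.2% of all genes were higher and 19.7% lower, with a median of 0.865 beside 1.01 for all genes. In the knockout library 11 of 56 were higher and 27 lower (48.2%), where 29.7% and 26.1% of all genes were, with a median of 0.815 beside 0.9997. The summed ratio of the factors was 0.909 in wild-type and 0.876 in knockout cells, no closer to 1 than with these cells. This holds for the sum with *Eef1a1*. Without *Eef1a1* the wild-type factors stood at 17894 non-RP CPM in low-RP cells and 19833 in other cells. With the cells under 0.5% mitochondrial share these values were 17894 and 20711, a wider gap. *Eef1a1* turned under 1, to 0.920 (0.908 to 0.932) and 0.880 (0.868 to 0.892). All 14 and all 15 genes higher before stayed over 1, and 26 of 27 and 28 of 28 lower genes stayed under 1. The cells left are part of those in which these genes were called, so this is partly built in. Feeder RNA moved with the contrast as well, as the 8 markers summed to 1711 CPM in low-RP and 779 CPM in other wild-type cells, and 777 and 510 CPM in knockout cells. Without the 41 and 21 collagen-rich cells the summed ratio of the factors was 0.921 in the wild-type library.

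Cells under 5% RP share gave a further picture. Their median depth was 830 UMIs in wild-type and 1214 UMIs in knockout cells, their median mitochondrial share 4.32% and 5.98%, and their feeder markers summed to 10061 and 1667 CPM. The factors had a ratio of 0.405 (0.382 to 0.428) and 0.425 (0.412 to 0.438) against all other cells of the library. In the wild-type library 36 of 59 factors were lower and 1 higher, where 21.5% of all genes were lower and 13.0% higher. In the knockout library 37 of 56 were lower and 7 higher, where 39.2% and 25.0% of all genes were. The medians were 0.408 and 0.429, beside 0.655 and 0.716 for all genes. In the wild-type group, which held 97805 UMIs, genes with few UMIs could not be called lower. *Eef1akmt1*, with 297 UMIs in the wild-type library, had 0 UMIs there, but its interval reached 1.35 and it was not called. The factors were not compared with genes of like abundance, so the part of abundance in the share of lower genes was not tested. The low level was not particular to the factors. The 9 ES cell markers had summed ratios of 0.351 and 0.484 and medians of 0.267 and 0.440. Of these markers 7 were lower in each library, and 0 and 2 were higher. Here *Eef1a1* was lower too, at 0.281 (0.249 to 0.314) and 0.195 (0.181 to 0.209).

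*Eif5b* was the only factor higher in both libraries in these cells, at 1.46 in wild-type and 2.35 in knockout cells. *Eif2ak2* (3.20), *Eif2a* (2.68), *Eif4g3* (2.64), *Eif3j1* (1.87), *Eif5* (1.80) and *Eif3a* (1.73) were higher in the knockout library, where the group has 327509 UMIs against 97805 in the wild-type. *Eif4g2* and *Eif4a2*, which were highest in cells under 10%, had 0.509 and 0.453 in wild-type and 0.330 and 0.523 in knockout cells. These genes were thus highest in cells of 5 to 10% and lower on either side. In barcodes under 500 UMIs, which were not kept as cells, the factors had 24849 CPM in wild-type and 24793 CPM in knockout cells, so the level in cells under 5% (11952 and 12928 CPM) was below that of these barcodes. The summed ratio under 5% was 0.415 in wild-type and 0.426 in knockout cells without collagen-rich cells. In cells of at least 2000 UMIs it was 0.387 and 0.435, and with a mitochondrial limit of 0.1 it was 0.408 and 0.432. The part of depth, mitochondrial share and feeder RNA in these values was not tested.

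Other genes of translation, taken as a list of 20, moved both ways. Of these, 3 were higher and 3 lower in the knockout library, below the 19.1% and 20.5% of all genes. The higher ones were *Dhps* (1.33) and *Dohh* (1.33), which make the hypusine of eIF5A, and the eIF4E kinase gene *Mknk2* (1.26). Lower were *Gspt1* (0.683) and *Abce1* (0.799), which act in termination and ribosome recycling, and *Pabpc1* (0.780), the poly(A)-binding protein. In low-RP cells 9 of 18 were higher in wild-type and 9 of 16 in knockout cells, where 36.6% and 38.7% of all genes were, and 4 were lower in each, where 29.9% and 32.9% were, among them *Rack1* at 0.524 and 0.493. Of 6 mitochondrial translation factors, *Tufm*, the mitochondrial elongation factor Tu, was higher in the knockout library at 1.29 (1.18 to 1.42) and none was lower.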

How the data were processed

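Raw UMI counts per gene and cell barcode were deposited by the authors for 1 wild-type and 1 *Lin28a* knockout inDrop library, made with a published pipeline (counts, not normalized). The submitters' processing notes name Seurat 2.3.4 and mm10, and the study's methods name a GENCODE release for its bulk data, while that of the single-cell counts is not given in the sources used here. Gene identifiers were matched without version to GENCODE M21 (54079 of 54146 rows, 52480 with version), which also gave coordinates, lengths and GC content. Barcodes are numbered anew in each file, so barcodes shared by the libraries could not be counted. Doublets were not called. Limits for cells follow the methods of the study. Counts were summed over cells and scaled to CPM of all UMIs or of the UMIs outside RP genes (non-RP CPM). Intervals were exact Poisson, exact binomial (Clopper-Pearson) and exact conditional intervals for ratios, at 95%. A gene was called higher or lower past 0.32 on the log2 scale (25% higher or 20% lower) with an interval off 1 and at least 200 UMIs. Where a gene had 0 UMIs, 3 counts were taken as its upper limit. Cells with at least 0.5% of UMIs on *Col1a1*, *Col1a2* and *Col3a1* were called collagen-rich. Genes named were the 10 of highest CPM, the 6 highest and 6 lowest library ratios, the 4 highest and lowest low-RP ratios per library, relatives and TOP genes, and others for their role after their values were seen. The genes, gene lists and contrasts were chosen with earlier results of these data known. The calculation was tested on simulated counts with known changes. Alternatives covered cell limits, scaling, gene minimum, fold, RP limit and cell groups. Analyses ran in Python 3.11.15 with SciPy 1.17.1, NumPy 2.4.6, matplotlib 3.10.9 and pandas 2.3.3.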

Additional observations from a re-analysis of the deposited data

Results flagged for a closer look

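*Eif2s2*, the beta subunit of eIF2, had ratios on opposite sides of 1 in cells under 5% RP share, which is why it is listed. In non-RP CPM its ratio of these cells over the other cells was 0.779 (0.638 to 0.942, 107 UMIs) in the wild-type library and 1.197 (1.08 to 1.32, 400 UMIs) in the knockout library. The knockout value did not pass the rule for a call. Both values lay above the medians of all genes in this contrast, 0.655 in wild-type and 0.716 in knockout cells. The difference was not tested, since each value comes from 1 library. The wild-type cells of this group held more feeder marker RNA, 10061 CPM against 1667 CPM, and had a median of 830 UMIs against 1214 UMIs.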

How the results depend on the processing

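With 1 library per genotype no replicate could be left out. No paired analysis was possible because each group has 1 sample and no test was made. The summed library ratio of the factors (1.01) had no stable direction. It was 0.944 as the mean of per-cell shares, 0.973 with median of ratios scaling and 0.992 without *Eef1a1*, and 1.002 without collagen-rich cells, 1.02 per non-RP UMI, without cells under 5% RP share, without cells under 0.5% mitochondrial share and with identifiers matched with version, and 1.03 in cells of 5 to 10% RP share, of 10 to 15% and of 5000 to 10000 UMIs. The 7 higher genes became 4 of 48 with a minimum of 1000 UMIs per gene (13.7% of all genes), 1 with a fold of 1.5 (6.50%), 2 in cells of 5 to 10% (15.5%) and 12 in cells of 5000 to 10000 UMIs (20.1%). The 13 lower genes became 3 with the fold of 1.5 (8.50% of all genes) and 8 in cells of 5 to 10% (13.6%). The ratio in cells under 10% RP share (0.914 wild-type, 0.895 knockout) was under 1 in each alternative, with an interval that reached past 1 in knockout cells with a limit of 15% (0.983 to 1.002). In the wild-type library it was 0.921 without collagen-rich cells, 0.872 as a mean of per-cell shares, 0.968 per total UMI, 0.947 with a limit of 15%, 0.923 without cells under 5%, 0.921 in cells of at least 2000 UMIs and 0.864 without *Eef1a1*. In the knockout library it was 0.907 and 0.885 with a minimum of 1000 UMIs or none, 0.732 as a mean of per-cell shares, 0.954 per total UMI, 0.992 with a limit of 15%, 0.945 without cells under 5%, 0.931 in cells of at least 2000 UMIs, 0.876 without cells under 0.5% mitochondrial share and 0.834 without *Eef1a1*. Under 5% the wild-type ratio (0.405) was 0.351 with a minimum of 1000 UMIs, 0.639 with none, 0.436 as a mean of per-cell shares, 0.443 per total UMI and 0.476 without *Eef1a1*, and the knockout ratio (0.425) was 0.536 with no minimum, 0.469 per total UMI and 0.565 without *Eef1a1*. The cause of these shifts was not tested. *Eefsec* in low-RP wild-type cells turned from 0.784 to 1.06 without cells under 0.5% mitochondrial share. Of the other values of named genes, 358 moved beyond their counting interval under an alternative and 1503 did not. Cells limited by RP share, mitochondrial share or depth were added after the data were seen. Feeder and clone differences cannot be told apart from the knockout.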
